A study of Mus musculus with 58 samples.

Results

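The genes described here are 41 lysosomal hydrolases and lysosomal membrane proteins, taken by gene symbol and sorted into 7 classes by the substrate they act on. They are 41 of the 24940 genes listed in the count table of the age series. The study sequenced polyadenylated RNA of microglia, the resident macrophages of the brain, sorted from the forebrain of C57BL/6 mice as CD11b+, CD45low, CX3CR1+ cells, and deposited 58 libraries. In the age series, wild-type mice were compared with SgshKO mice, which lack Sgsh, the sulfatase that removes sulfate from the end of heparan sulfate chains and whose loss causes Sanfilippo syndrome. Wild-type libraries numbered 3 at 3 weeks, 2 at 4 months and 4 at 8 months, and SgshKO libraries 4, 2 and 7. In a further 20 libraries, wild-type mice had received a single injection into a brain ventricle of PBS, of a control antisense oligonucleotide (ASO) labelled ntc, or of an ASO against Mitf, Tfeb or Tfe3, with 4 libraries for each. The last 16 libraries came from SgshKO mice given either ntc or the Mitf and Tfe3 ASOs together, in 2 groups of mice labelled grp 1 and grp 2, with 4 libraries per treatment in each. ASO-treated mice were sampled 14 days after injection, and their age is not given in the sources used here. The labels do not say which stretch of Sgsh is altered in the knockout.

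Lysosomes take apart glycans, lipids, proteins and nucleic acids with acid hydrolases, most of which remove a single kind of bond from the end of a chain. Heavily glycosylated membrane proteins such as Lamp1 and Lamp2 line the compartment, and others carry lipids, sugars and amino acids across its membrane. Mitf, Tfeb and Tfe3 are related basic helix-loop-helix transcription factors that bind E-box and M-box sequences near the start sites of many lysosomal genes. When a hydrolase is missing, its substrate builds up in the lysosome, and microglia, which take up debris of other cells, are among the brain cells in which storage is seen.

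RefSeq promoter windows, which run from 250 bases before to 50 after the annotated start site (GRCm38.p6, the same assembly as mm10), were used for 35 of the 41 genes. Each was searched on both strands for the E-box core CACGTG, for the same core with a T before it (TCACGTG, which overlaps the core) and for the M-box TCATGTG. The E-box core was in the windows of 8 of the 35 genes, or 22.9%, against 8.09% of the 27025 genes in the table. In all 8 the core also had the T before it on at least 1 of the strands, a form that 4.29% of all genes carried. The M-box was in the windows of 7 genes, or 20%, against 4.31% of all genes, and 12 genes, or 34.3%, had at least 1 of the motifs, against 12.05%. Printed here are 3 windows with several motifs, Dpp7, Lamp1 and Gla, and 3 with none, Npc2, Pld3 and Gm2a, because these 6 genes recur in the comparisons below. Each is written 5′ to 3′ on the strand of its gene, with the motifs in capitals.
Dpp7 (chr2:25356283-25356582, minus strand): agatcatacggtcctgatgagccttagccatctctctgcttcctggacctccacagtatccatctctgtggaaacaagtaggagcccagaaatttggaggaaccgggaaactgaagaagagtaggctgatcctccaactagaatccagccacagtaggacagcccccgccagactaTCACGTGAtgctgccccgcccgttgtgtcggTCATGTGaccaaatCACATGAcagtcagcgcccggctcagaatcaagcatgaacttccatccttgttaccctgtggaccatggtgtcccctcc
Lamp1 (chr8:13158911-13159210, plus strand): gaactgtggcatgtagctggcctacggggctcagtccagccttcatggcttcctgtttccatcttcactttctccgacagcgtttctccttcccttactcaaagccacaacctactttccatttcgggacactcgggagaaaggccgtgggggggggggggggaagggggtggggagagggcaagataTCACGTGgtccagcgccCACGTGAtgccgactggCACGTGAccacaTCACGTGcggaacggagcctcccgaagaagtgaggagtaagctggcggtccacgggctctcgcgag
Gla (chrX:134600956-134601255, minus strand): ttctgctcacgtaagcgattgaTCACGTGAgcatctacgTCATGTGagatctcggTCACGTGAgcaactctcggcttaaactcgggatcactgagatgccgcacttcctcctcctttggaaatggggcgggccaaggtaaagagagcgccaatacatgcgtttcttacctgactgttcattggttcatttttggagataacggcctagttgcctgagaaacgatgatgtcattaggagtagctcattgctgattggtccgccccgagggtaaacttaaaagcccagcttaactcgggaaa
Npc2 (chr12:84773063-84773362, minus strand): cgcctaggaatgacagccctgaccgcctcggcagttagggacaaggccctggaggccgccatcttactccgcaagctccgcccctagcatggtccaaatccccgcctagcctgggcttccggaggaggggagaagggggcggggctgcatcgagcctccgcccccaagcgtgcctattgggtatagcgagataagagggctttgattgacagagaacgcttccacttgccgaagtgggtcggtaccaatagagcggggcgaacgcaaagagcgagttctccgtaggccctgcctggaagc
Pld3 (chr7:27553169-27553468, minus strand): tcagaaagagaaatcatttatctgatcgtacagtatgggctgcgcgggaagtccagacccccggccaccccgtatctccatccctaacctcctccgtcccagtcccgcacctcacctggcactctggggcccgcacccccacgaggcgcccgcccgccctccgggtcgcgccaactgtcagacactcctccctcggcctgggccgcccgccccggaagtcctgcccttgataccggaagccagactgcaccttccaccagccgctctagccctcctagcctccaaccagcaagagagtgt
Gm2a (chr11:55097735-55098034, plus strand): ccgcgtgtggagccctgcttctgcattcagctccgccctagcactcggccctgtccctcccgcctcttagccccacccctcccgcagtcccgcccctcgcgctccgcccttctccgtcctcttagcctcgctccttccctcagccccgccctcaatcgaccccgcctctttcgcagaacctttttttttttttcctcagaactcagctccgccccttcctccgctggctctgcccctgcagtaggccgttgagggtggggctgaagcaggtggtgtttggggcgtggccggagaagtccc
Dpp7 has an E-box core starting 73 bases before the start site and M-boxes 43 and 29 bases before it. Lamp1 has 4 E-box cores, at 61, 45, 28 and 15 bases before the start. Gla has cores 227 and 194 bases before its start, with an M-box between them at 211. Glb1, Gaa, Arsa, Sumf1 and Lgmn also hold a core, and Acp5, Ppt1, Tpp1 and Scarb2 an M-box. A match describes the letters in the window and not occupancy by a factor.

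Library totals ran from 8191508 to 27106584 counts in the age series, 14372015 to 30378870 in wild-type ASO libraries and 12517838 to 30431437 in SgshKO ASO libraries. The transcript of Sgsh itself does not check the genotype labels: it was not called at 3 weeks or 4 months (log2 fold changes -0.32 and -0.40) and was lower at 8 months (-0.74 ± 0.16, SE). Each ASO lowered its target. Mitf fell from 43.7 ± 6.92 (SD, n = 4) with ntc to 1.58 ± 0.466 CPM (counts scaled to a common library total) with its ASO, Tfeb from 54.9 ± 2.33 to 5.80 ± 1.0, and Tfe3 from 198 ± 5.0 to 38.1 ± 2.68. In SgshKO mice the joint treatment took Mitf from 72.4 ± 6.57 to 15.3 ± 4.67 CPM and Tfe3 from 170 ± 17.7 to 80.4 ± 5.23 (n = 8). Markers of microglia summed to 29260 to 65476 CPM in every library. Neutrophil markers (8 genes) reached at most 7.33 CPM in wild-type age-series libraries, where Elane was at 0, and 1.71 to 28.9 in SgshKO libraries at 3 weeks. They stood at 2793 and 13869 CPM in the SgshKO libraries of 4 months and at 399 to 5375 in those of 8 months. Border macrophage markers (6 genes) summed to 56.3 to 105 CPM in SgshKO at 8 months against 15.8 to 32.1 in wild type, and endothelial markers (3 genes) to 25 to 45 against 10.3 to 26.5.

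Per transcript length, the 41 genes spanned a wide range of levels. In wild-type microglia of 8 months, Lgmn, an asparagine-specific protease, had the highest mean at 2895 ± 89.3 TPM (the deposited transcript abundance scaled for length and depth; SD, n = 4). Lamp1 (716 ± 40.3), Pld4 (710 ± 56) and Cd68 (677 ± 42.9) followed at levels that did not differ beyond their spread, then Hexa (582 ± 29.1) and Man2b1 (458 ± 52.0). The lowest levels were those of Gla (3.75 ± 0.414), Acp5 (0.628 ± 0.696) and Hyal3 (0.458 ± 0.248). In SgshKO microglia of the same age Lgmn was still highest (2284 TPM), but Cd68 (1493), Lamp1 (1427), Hexa (1133) and Man2b1 (805) all stood above Pld4 (598), and Pld3 (499) and Npc2 (478) came next. The 41 genes together took 1.43 to 1.58% of all counts in wild type and 2.10 to 2.26% in SgshKO at 8 months, with no overlap.

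The first comparison asked how loss of Sgsh alters these genes at each age. As early as 3 weeks, 5 of 8 genes for sphingolipids, 5 of 7 for cholesterol and phospholipids, 5 of 7 for glycoprotein sugars, 3 of 5 for proteins, 3 of 5 for nucleic acids and 2 of 4 membrane proteins rose in SgshKO microglia. For 12 genes the difference was wider at 8 months. Of the 5 genes for glycosaminoglycans other than heparan sulfate and for sulfatase activation, 1 rose at each age. The genes that break down heparan sulfate, the substrate of Sgsh, are counted apart from the 41, and 6, 5 and 6 of those 9 rose at the 3 ages (medians 0.47, 0.35 and 0.53). At 3 weeks 24 of 41 rose and 0 fell, where 5.31% of the 14309 genes tested rose and 3.72% fell. At 4 months 23 rose and 4 fell, against 10.3% and 9.26% of all genes. At 8 months 27 rose and 5 fell, against 21.6% and 18.9%. The median log2 fold change of the 41 was 0.44, 0.60 and 0.72 at the 3 ages, where that of all genes was -0.0175, 0.0211 and 0.0238. In all, 22 genes rose at every age, 28 rose at 1 age or more, Lgmn and Pla2g15 fell at both 4 and 8 months, and 6 passed the test at no age. Each call is edgeR's quasi-likelihood F test with a Benjamini-Hochberg adjusted p under 0.05 over all genes. The labels do not say that libraries of a group came from separate animals, so p-values measure the spread between these libraries. In bulk RNA of sorted cells, fewer cells of a type and less RNA per cell cannot be told apart.

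By class at 8 months, 5 of 8 sphingolipid genes rose and 1 fell, with a median log2 fold change of 1.07, and 4 of 5 protein and peptide genes rose and 1 fell (median 0.98). Of the nucleic acid and phosphate ester genes 3 of 5 rose and 1 fell (0.95), and of the cholesterol, acyl and phospholipid genes 5 of 7 rose and 1 fell (0.79). All 4 membrane proteins rose (0.76), as did 5 of 7 genes for sugars of glycoproteins and glycogen (0.65). Of the 5 genes for glycosaminoglycans and sulfatase activation, 1 rose and 1 fell, with a median of -0.30. This contrast depends on how genes were assigned. Glb1, which also acts on keratan sulfate, a glycosaminoglycan, is counted with the sphingolipid genes. At 3 weeks the nucleic acid class had the highest median, 1.01 with 3 of 5 called, and the glycosaminoglycan class again the lowest, 0.09.

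**Figure D1:**
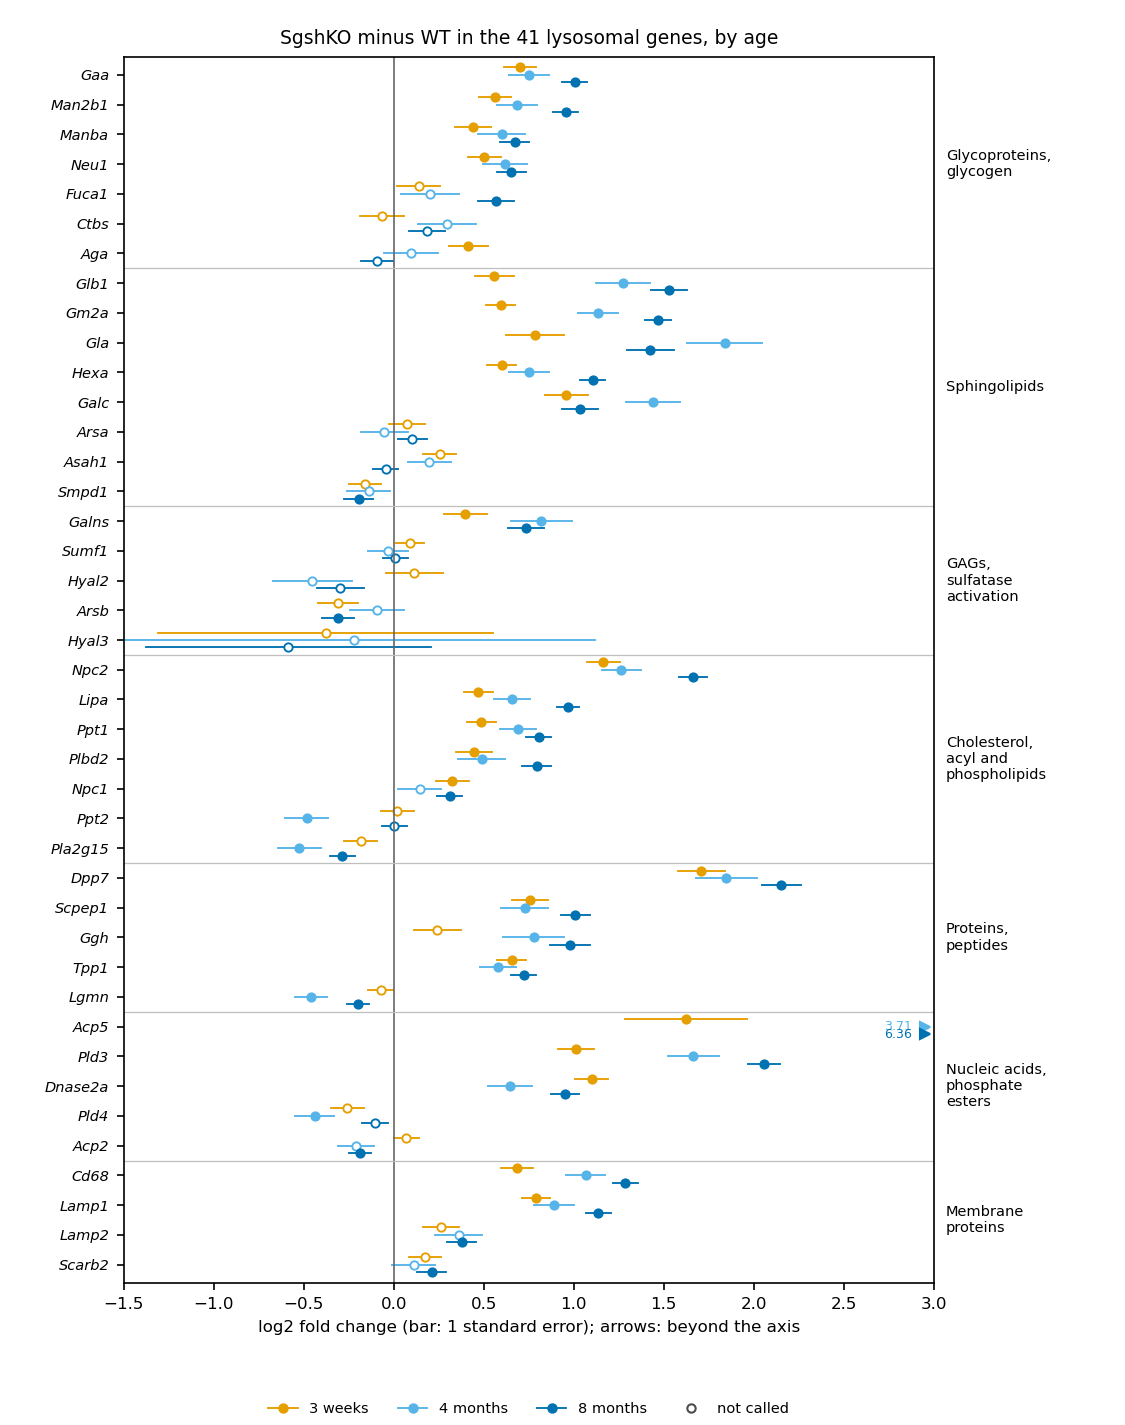
Log2 fold change of SgshKO over wild type (x axis) for each of the 41 genes (y axis), grouped by substrate class, at 3 weeks, 4 months and 8 months; filled points passed the test and open points did not. Most points lie right of 0 in every class but the one for glycosaminoglycans, and Acp5 runs off the axis at 3.71 and 6.36, marked by arrows.

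Among sphingolipid genes, Glb1, Gm2a, Gla, Hexa and Galc rose at all 3 ages. Glb1 encodes beta-galactosidase, which trims galactose from GM1 ganglioside and from keratan sulfate. At 3 weeks it stood at 77.7, 87.2 and 115 CPM in wild type and 139, 135, 139 and 138 in SgshKO, and at 4 months at 98.5 and 85.9 against 259 and 187. At 8 months the wild-type libraries had 88.4, 92.8, 91.4 and 86.0 CPM and the 7 SgshKO libraries 239 to 283 (median 259). The groups overlapped at no age, and the log2 fold change was 0.56 ± 0.11 (SE), 1.27 ± 0.15 and 1.53 ± 0.10 (adjusted p = 3.93e-12 at 8 months). Gm2a, the activator that lifts GM2 ganglioside out of the membrane for hexosaminidase A, had 264, 260, 225 and 239 CPM in wild type at 8 months against 619 to 719 (median 708) in SgshKO. Its change was 0.59 ± 0.08 at 3 weeks and 1.47 ± 0.07 at 8 months (4.74e-14). Hexa, the alpha subunit of that hexosaminidase, changed by 0.60, 0.75 and 1.10. Gla, alpha-galactosidase A, which removes galactose from globosides, differed from these in being highest at 4 months in both genotypes. It had 6.10, 5.96 and 6.98 CPM in wild type and 12.7, 9.94, 10.7 and 10.4 in SgshKO at 3 weeks, then 9.93 and 13.6 against 44.4 and 40.5 at 4 months. At 8 months wild-type libraries were at 7.14, 6.84, 6.70 and 8.22 and SgshKO libraries at 15.9 to 22 (median 19.0). Its log2 fold change was 0.78 ± 0.16, 1.84 ± 0.21 and 1.42 ± 0.13 (5.34e-09 at 8 months). Galc, which removes galactose from the myelin lipid galactosylceramide, changed by 0.96, 1.44 and 1.03 at the 3 ages. The other 3 of the class did not rise: Smpd1, acid sphingomyelinase, had 77.5, 82.3, 78.9 and 84.6 CPM in wild type at 8 months and 61.8 to 82.7 (median 71.8) in SgshKO, a log2 change of -0.20 ± 0.08 (adjusted p = 0.0417) that was lost when any of 7 of the 11 libraries was left out. Asah1, acid ceramidase, and Arsa, the sulfatase for sulfatide, passed at no age, with changes at 8 months of -0.04 ± 0.07 and 0.10 ± 0.08.

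Dpp7, a dipeptidyl peptidase of the lysosome and of secretory vesicles, had the largest change of the protein and peptide class. Wild-type libraries held 29.0, 29.6 and 30.9 CPM at 3 weeks and SgshKO libraries 92.5, 101, 90.3 and 107, and at 4 months 32.7 and 32.3 stood against 131 and 104. At 8 months wild type had 30.1, 33.7, 35 and 35.9 CPM and SgshKO 106 to 174 (median 157). Wild-type levels of Dpp7 hardly varied with age, and no SgshKO library came near them. The log2 fold change was 1.71 ± 0.13 (adjusted p = 1.85e-09), 1.85 ± 0.17 (2.42e-08) and 2.15 ± 0.11 (9.48e-14). Tpp1, a tripeptidyl peptidase whose loss causes a neuronal ceroid lipofuscinosis, changed by 0.66, 0.58 and 0.72. Scpep1, a serine carboxypeptidase, changed by 0.76, 0.73 and 1.01. Ggh, which shortens polyglutamate tails of folates, was not called at 3 weeks (0.24 ± 0.13) and rose at 4 and 8 months by 0.78 and 0.98. Lgmn, the most abundant of the 41, went the other way at the later ages, with 3871 and 3710 CPM in wild type against 2958 and 2552 in SgshKO at 4 months (-0.46 ± 0.09, 0.000744). At 8 months its libraries lay at 3847, 3762, 3644 and 3475 CPM in wild type and 3079 to 3469 (median 3134) in SgshKO, a change of -0.20 ± 0.06 (0.00652) with the lowest wild-type library just above the highest SgshKO library. A fit that blocks on replicate number ended the 8-month call for Lgmn (adjusted p = 0.0568).

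The class for nucleic acids and phosphate esters held the widest spread. Acp5, tartrate-resistant acid phosphatase, known from osteoclasts and activated macrophages, had 2.67, 3.25 and 3.85 CPM in wild type and 8.26, 9.27, 12.9 and 10.4 in SgshKO at 3 weeks. At 4 months the values were 1.89 and 2.08 against 36.3 and 16.7, and at 8 months 0.139, 0.630, 0.0472 and 1.33 against 27.4 to 46.0 (median 41). SgshKO libraries were higher at every age while the wild-type level went down, so the log2 fold change widened from 1.63 ± 0.34 (0.00209) through 3.71 ± 0.49 (5.11e-06) to 6.36 ± 0.39 (2.24e-12). The wild-type libraries of 8 months held 2, 13, 1 and 15 reads of Acp5, so the size of that fold rests on few reads. In the SgshKO libraries with ntc, from mice of unstated age, Acp5 ranged widely. It lay at 2.46 to 19.9 CPM in grp 1 and 2.42 to 21.1 in grp 2. Pld3, an exonuclease of the phospholipase D family that degrades single-stranded nucleic acid, had 207, 210 and 240 CPM in wild type and 425, 438, 473 and 432 in SgshKO at 3 weeks. At 4 months it had 194 and 173 against 615 and 548, and at 8 months 184, 205, 191 and 191 against 614 to 916 (median 812). Its log2 fold change was 1.01 ± 0.10, 1.66 ± 0.14 and 2.06 ± 0.09 (6.39e-15 at 8 months), with no overlap at any age. Dnase2a, the acid endonuclease for DNA of engulfed cells, had its largest difference at 3 weeks, although the change between ages was not called. It had 98.0, 99.4 and 119 CPM in wild type against 229, 216, 244 and 216 in SgshKO (1.10 ± 0.09, 7.67e-09). At 4 months it had 109 and 97.3 CPM against 170 and 152 (0.65 ± 0.12), and at 8 months 108, 114, 114 and 98.1 against 182 to 222 (median 216; 0.95 ± 0.08). Pld4, a relative of Pld3 with the same activity, was lower at 4 months, with 1012 and 992 CPM against 733 and 744 (-0.44 ± 0.11, 0.00657). At 3 weeks Pld4 was not called, but 1102 to 1155 CPM in wild type lay apart from 840 to 1026 in SgshKO. It was not called at 8 months either (-0.10). Acp2, a lysosomal acid phosphatase, was lower at 8 months by -0.19 ± 0.06 (0.0160), a call that was lost without wild-type replicate 1 (-0.16, 0.0599).

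**Figure D2:**
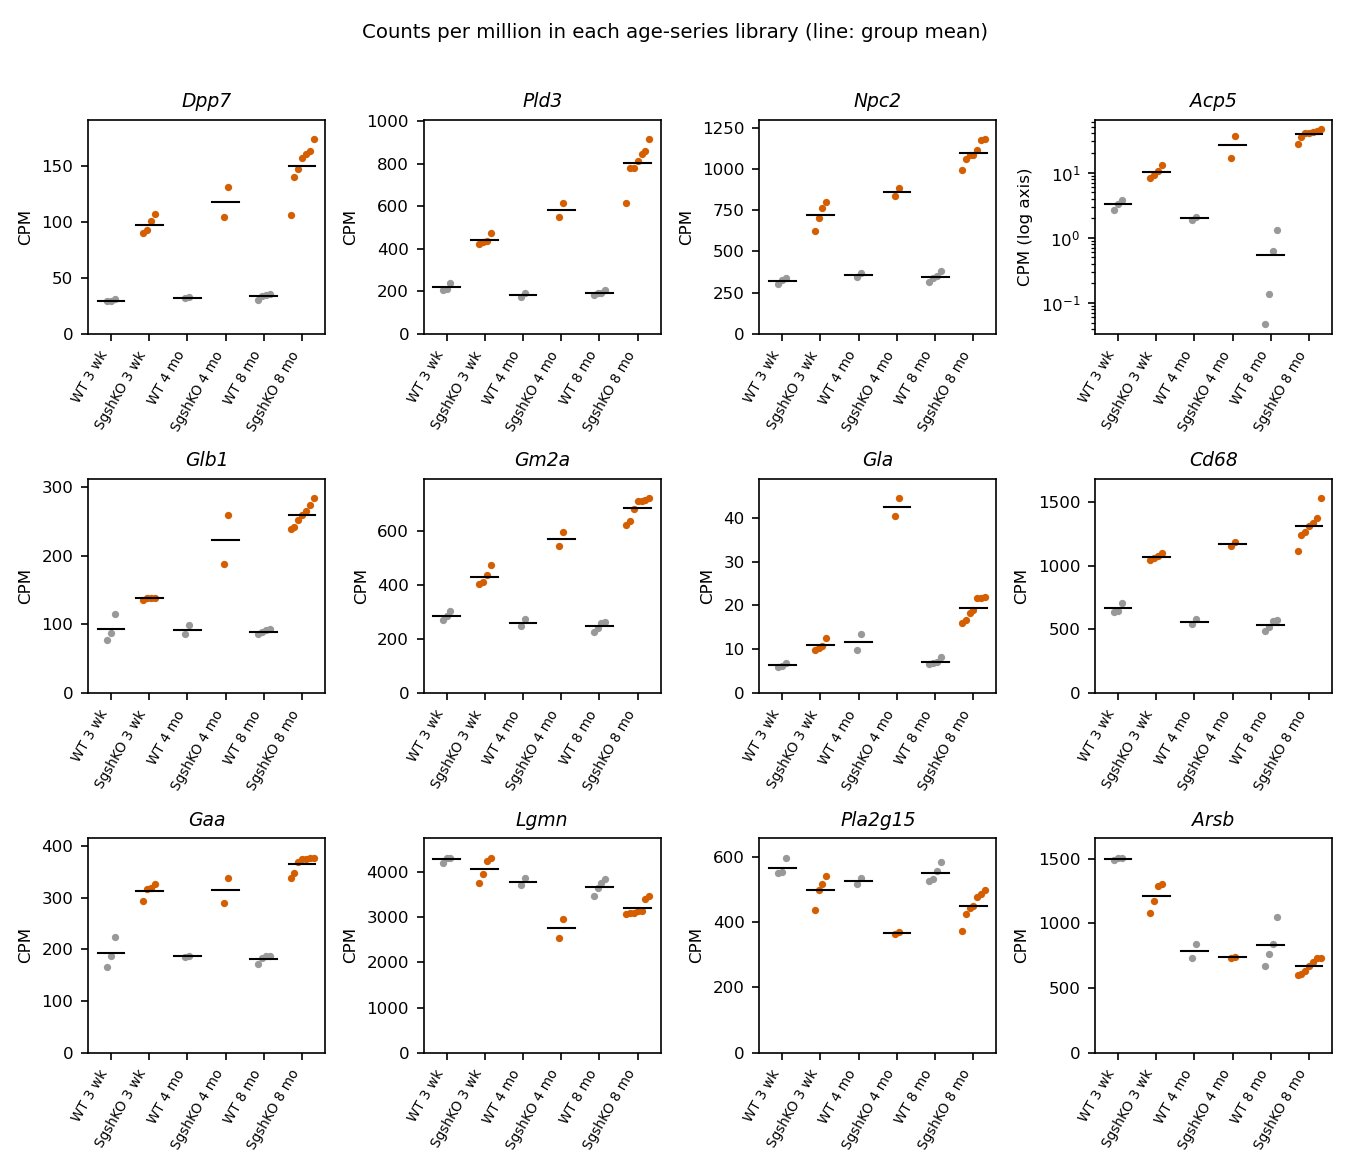
CPM of 12 genes (y axes; log scale for Acp5) in every library of the age series, by age and genotype (x axis); points are libraries and bars the group means. Dpp7, Pld3, Npc2, Glb1 and Gm2a show no overlap between genotypes at any age, and Gla is highest at 4 months in both genotypes.

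Among genes for cholesterol, acyl chains and phospholipids, Npc2, the soluble carrier that hands cholesterol to Npc1 in the membrane, led. It had 338, 326 and 303 CPM in wild type and 627, 761, 800 and 700 in SgshKO at 3 weeks, and 370 and 348 against 887 and 839 at 4 months. At 8 months it had 341, 380, 351 and 317 against 992 to 1181 (median 1086). Wild-type libraries stayed between 303 and 380 CPM throughout, and the change in SgshKO was 1.16 ± 0.09, 1.26 ± 0.11 and 1.66 ± 0.08 (1.14e-14 at 8 months). Lipa, the acid lipase for cholesteryl esters and triglycerides, changed by 0.47, 0.66 and 0.97, Ppt1, which removes palmitate from proteins, by 0.49, 0.69 and 0.81, and Plbd2, a phospholipase B-like protein, by 0.44, 0.49 and 0.79. Npc1 moved less, at 0.33 (0.0196), 0.14 (not called) and 0.31 (0.00150), and its 3-week call was lost when any of 4 of the 7 libraries was left out. Pla2g15, the lysosomal phospholipase A2, was not called at 3 weeks, but 551 to 598 CPM in wild type lay apart from 439 to 541 in SgshKO. It was called lower in SgshKO at 4 months, with 536 and 518 CPM against 369 and 363 (-0.52 ± 0.12, 0.00211). At 8 months it had 532, 584, 557 and 525 CPM against 373 to 498 (median 450), without overlap (-0.29 ± 0.07, 0.00253). Ppt2, another thioesterase, was called at 4 months alone, with 93.3 and 82.0 CPM against 69.3 and 56.1 (-0.48 ± 0.12, 0.00579), and leaving out either of 2 of those 4 libraries ended the call. At 8 months its change was 0.00.

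For sugars of glycoproteins and glycogen, Gaa, acid alpha-glucosidase for glycogen, changed most at 8 months: 183, 188, 187 and 171 CPM in wild type against 338 to 378 (median 375) in SgshKO (1.01 ± 0.07, 5.37e-11). At 3 weeks it had 166, 188 and 225 CPM against 326, 294, 317 and 320 (0.70), and at 4 months 185 and 188 against 338 and 291 (0.75). Man2b1, alpha-mannosidase, changed by 0.56, 0.68 and 0.96, Manba, beta-mannosidase, by 0.44, 0.60 and 0.67, and Neu1, the sialidase, by 0.50, 0.62 and 0.65. Fuca1, alpha-fucosidase, rose at 8 months alone (0.57 ± 0.10, 5.24e-05), after 0.14 and 0.20 at the earlier ages. Aga, which frees asparagine from sugar, was called at 3 weeks (0.41 ± 0.11, 0.0168), a call lost on leaving out any of 3 of the 7 libraries, and stood at 0.10 and -0.09 later. Ctbs, chitobiase, passed at no age (0.19 ± 0.10 at 8 months, 0.145).

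In the glycosaminoglycan class, Galns, the sulfatase that acts on keratan sulfate and chondroitin 6-sulfate, was the only gene called higher. It had 24.9, 25.5, 25.3 and 30.7 CPM in wild type at 8 months against 36.7 to 51.3 (median 44.5) in SgshKO (0.73 ± 0.10, 3.08e-06). Its changes at 3 weeks and 4 months were 0.40 (0.0424, lost without any of 6 of the 7 libraries) and 0.82. Arsb, which removes sulfate from dermatan and chondroitin sulfate, differed more by age than by genotype. At 3 weeks it had 1508, 1491 and 1502 CPM in wild type and 1170, 1308, 1286 and 1081 in SgshKO, and at 4 months 837 and 735 against 743 and 733. At 8 months it had 1049, 839, 762 and 667 CPM against 604 to 735 (median 673), and the groups overlapped. The 8-month change was -0.31 ± 0.09 (0.00851), and without wild-type replicate 1, the highest library, it was -0.17 (0.105). Sumf1, which activates all sulfatases by modifying a cysteine in them, passed at no age (0.01 ± 0.07 at 8 months), nor did the hyaluronidases Hyal2 (-0.30 ± 0.13, 0.0742) and Hyal3 (-0.59 ± 0.79).

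Of the membrane proteins, Cd68, the macrophage relative of the Lamp proteins, had 638, 645 and 709 CPM in wild type and 1060, 1071, 1096 and 1043 in SgshKO at 3 weeks, and 580 and 539 against 1185 and 1156 at 4 months. At 8 months it had 515, 571, 567 and 491 against 1114 to 1526 (median 1309). The groups were apart at every age, with changes of 0.68 ± 0.09, 1.07 ± 0.11 and 1.29 ± 0.07 (8.39e-13 at 8 months). Lamp1 changed by 0.79, 0.89 and 1.14 (2.53e-12 at 8 months). Lamp2, needed for fusion with autophagosomes, was called at 8 months alone (0.38 ± 0.08, 0.000676). Its libraries were also apart at 3 weeks, at 639 to 697 CPM in wild type and 726 to 892 in SgshKO. At 4 months Lamp2 had 729 and 559 CPM against 877 and 778. Scarb2, the receptor that brings glucocerebrosidase to the lysosome, was likewise called only at 8 months (0.21, 0.0285, lost without any of 4 of the 11 libraries).

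Neutrophil, border macrophage and endothelial markers were higher in SgshKO libraries beside these changes, and microglia markers (8 genes) were lower. The latter summed to 44920 to 49002 CPM in SgshKO against 51203 to 52156 in wild type at 3 weeks, 29260 to 33240 against 43359 to 47427 at 4 months and 32990 to 36932 against 40496 to 47825 at 8 months, with no overlap. Monocyte markers (3 genes) were at 17.1 to 72 CPM against 5.91 to 9.25 at 4 months and at 6.69 to 42.5 against 8.76 to 11.5 at 8 months. Leaving out the 2 SgshKO libraries of 8 months with over 2000 CPM of neutrophil markers gave 27 genes higher and 4 lower at that age, and at 3 weeks those markers were at most 28.9 CPM. Both SgshKO libraries of 4 months were above that limit, so no value without them can be had. The SgshKO libraries of 8 months that were kept still held 399 to 726 CPM of neutrophil markers, against 1.75 to 3.26 in wild type. Leaving out the other 2 therefore does not remove neutrophil RNA. The part of neutrophil, border macrophage, monocyte and endothelial RNA, and of the lower microglia markers, in the changes was not tested. On the authors' TPM scale, all genes shifted by a median of -0.06, -0.09 and -0.11 (log2) at the 3 ages, and the counts of higher and lower among the 41 became 22 and 3, 23 and 6, and 25 and 9. The median of the 41 genes on that scale was 0.37, 0.51 and 0.57.

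The change in the genotype difference between ages was tested directly. From 3 weeks to 8 months the difference widened for 12 genes and narrowed or reversed for 1, against 5.98% and 3.26% of all genes, and the median change was 0.23 where that of all genes was 0.0233. The 12 came from 6 of the 7 classes, with none for glycosaminoglycans: 3 each for sphingolipids and cholesterol and phospholipids, 2 each for nucleic acids and membrane proteins, and 1 each for proteins and for sugars. Glb1, which also acts on keratan sulfate, is among those counted for sphingolipids. Acp5 had the largest change at 4.74 ± 0.52 (1.27e-06), followed by Pld3 at 1.04 ± 0.13 (6.77e-06), Glb1 at 0.97 ± 0.14 (6.53e-05) and Gm2a at 0.87 ± 0.11 (4.92e-06). Ggh (0.74), Cd68 (0.60), Hexa, Lipa and Npc2 (0.50 each) were also called, and so, less firmly, were Man2b1 (0.39, 0.0252), Lamp1 (0.35, 0.0360) and Ppt1 (0.32, 0.0466). Aga changed by -0.51 (0.0244). The calls for Ppt1, Lamp1, Man2b1 and Aga were lost on leaving out any of 13, 9, 4 and 4 of the 18 libraries. Dpp7, already 1.71 at 3 weeks, was not among them. Blocking on replicate number left 6 of the 41 called.

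From 3 weeks to 4 months 4 genes widened and 0 narrowed, against 1.63% and 0.895% of all genes: Gla (1.05, 0.0276), Glb1 (0.71, 0.0336), Pld3 (0.65, 0.0333) and Gm2a (0.54, 0.0309). These rest on 2 libraries per genotype at 4 months, and each was lost when any of 5 to 8 of the 11 libraries was left out. Blocking on replicate number left none of the 4 called. From 4 to 8 months 0 of 41 genes changed in edgeR's test, against 0.391% of all genes in either direction, with 11 of the 41 and 1641 of all genes at an unadjusted p under 0.05. DESeq2 called 1 of the 41.

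Age itself was then compared within each genotype. In wild type, from 3 weeks to 8 months, 0 of 41 rose and 8 fell, against 3.02% and 4.63% of all genes, with a median of -0.08 (-0.0216 for all genes). In SgshKO, 17 rose and 7 fell, against 15.5% and 15.1%, with a median of 0.12 (0.0209 for all genes). Acp5 fell in wild type (-2.77 ± 0.45, 0.000244) and rose in SgshKO (1.96 ± 0.27, 4.03e-06). Arsb fell in both by nearly the same amount, -0.86 ± 0.11 (1.79e-05) and -0.85 ± 0.09 (9.59e-08). Lipa (-0.33, 0.00525), Pld4 and Lamp2 (-0.35 each), Cd68 (-0.31), Tpp1 and Man2b1 (-0.29 each) also fell in wild type. Of these, Lamp2 and Man2b1 were lost without any of 5 of the 7 libraries, Cd68 without any of 4, and Tpp1 without wild-type replicate 3 of 3 weeks (0.153). In SgshKO, Glb1 (0.91 ± 0.09), Pld3 (0.86 ± 0.08) and Gla (0.82 ± 0.13) rose most after Acp5. Acp2 (-0.44 ± 0.06), Asah1 (-0.37 ± 0.07) and Lgmn (-0.35 ± 0.06) fell after Arsb. In the sphingolipid class 5 of 8 rose and 1 fell with age in SgshKO (median 0.43), where 0 of 8 were called in wild type (0.02). Without the 2 libraries with most neutrophil marker RNA, 15 rose and 5 fell in SgshKO, and on the TPM scale 15 rose and 10 fell. With the difference of Ddx3y and Xist, which marks the sex of a library, as a covariate, 2 of the 41 were called in wild type.

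The wild-type ASO libraries asked what each MiT/TFE factor does to these genes in normal microglia. Lowering Mitf raised 19 of the 39 genes in this table and lowered 0, against 5.77% and 5.21% of the 10277 genes tested, with a median of 0.18 (-0.0121 for all genes). Lowering Tfeb raised 6 and lowered 0, against 0.564% and 0.214%, and lowering Tfe3 raised 4 and lowered 3, against 1.46% and 0.701%. Acp5 and Hyal3 are not in this table. Between ntc and PBS 0 of 39 and 0% of all genes were called in edgeR's test, with 6 and 415 at an unadjusted p under 0.05. The 3 ASO comparisons share the 4 ntc libraries and are given side by side. Microglia markers summed to 60070 to 62663 CPM with the Mitf ASO and 62476 to 65439 with ntc, and Mrc1, the border macrophage marker in this table, was at 39.1 to 56.2 and 28.9 to 49.3. Their part in the changes was not tested.

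**Figure D3:**
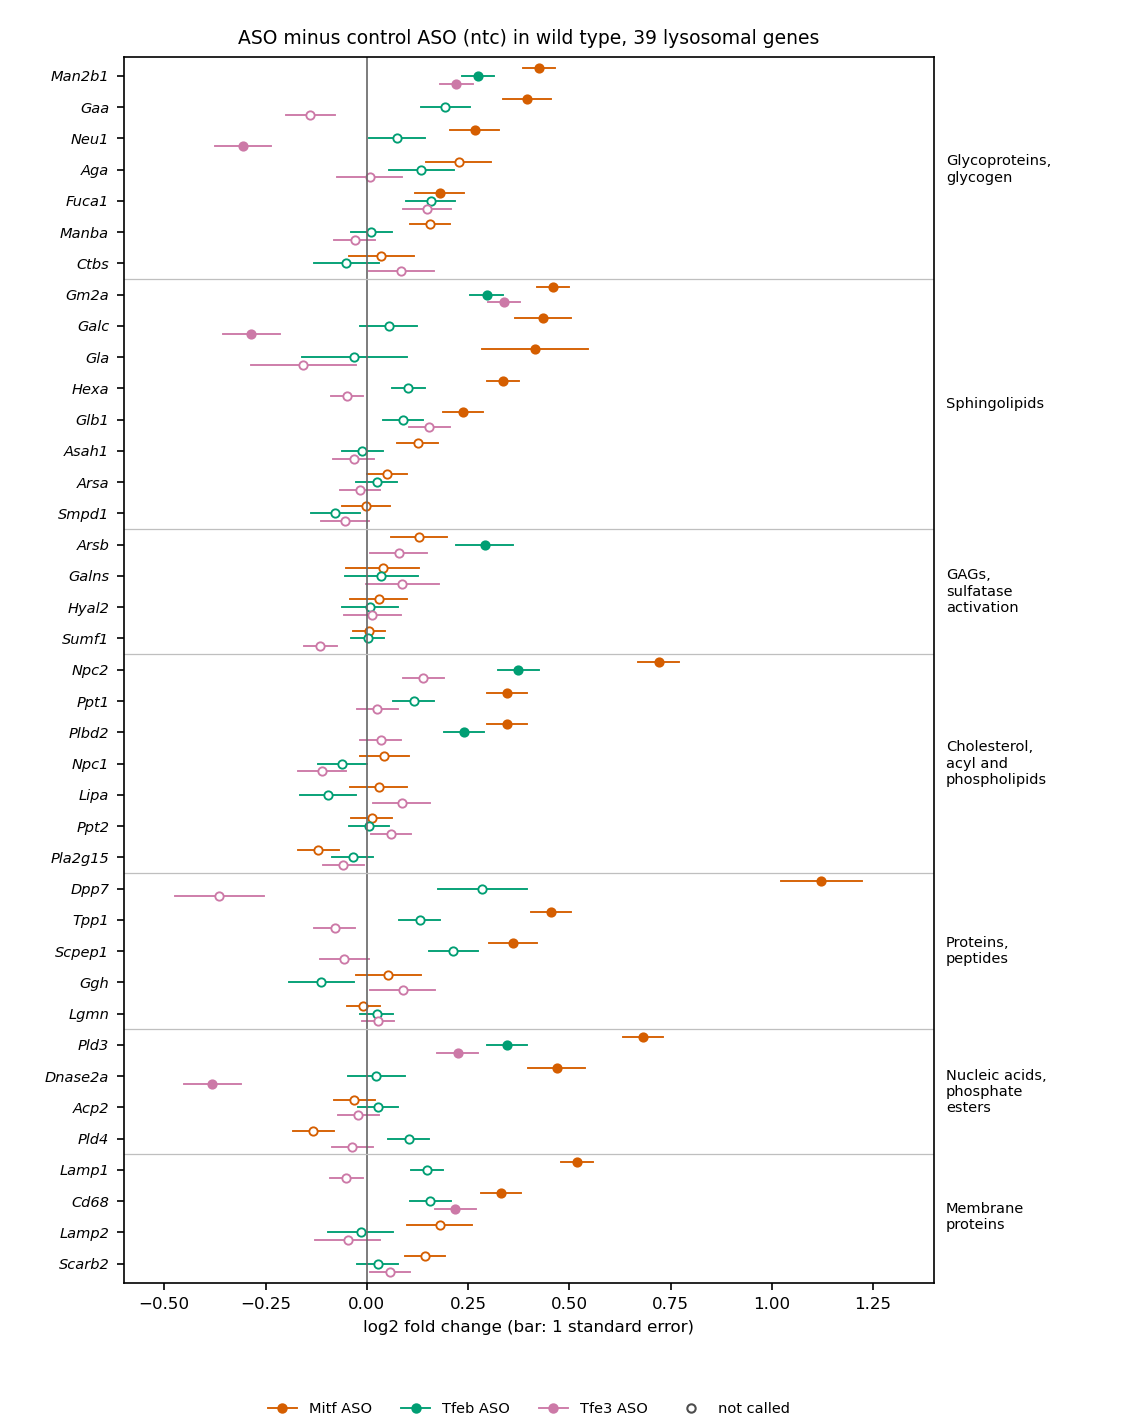
Log2 fold change over ntc (x axis) of the 39 genes in the wild-type ASO table (y axis, by substrate class) for the Mitf, Tfeb and Tfe3 ASOs; filled points passed the test and open points did not. With the Mitf ASO Dpp7 lies farthest to the right, at 1.12. With the Tfe3 ASO 20 of the 39 points are left of 0, and those of Dnase2a, Neu1 and Galc are the filled ones among them.

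With the Mitf ASO, Dpp7 rose most. It had 46.5, 42.1, 49.4 and 32.3 CPM with ntc and 99.2, 97.4, 89.9 and 82.3 with the Mitf ASO, while the Tfeb ASO gave 60.9, 45.4, 46.1 and 53.4 and the Tfe3 ASO 36.7, 33.1, 33.4 and 28.4. PBS libraries had 32.7, 38.1, 30.3 and 34.2. The 4 Mitf ASO libraries stood above all others, with a log2 fold change of 1.12 ± 0.10 (1.63e-06), against 0.29 (0.226) for Tfeb and -0.36 ± 0.11 (0.0888) for Tfe3. Npc2 had 557, 558, 557 and 477 CPM with ntc, 965, 909, 872 and 796 with the Mitf ASO (0.72 ± 0.05, 4.03e-08) and 780, 671, 678 and 655 with the Tfeb ASO (0.37 ± 0.05, 0.000508). Tfe3 ASO libraries had 591, 602, 640 and 533 (0.14, 0.151), so the groups lined up with Mitf highest, Tfeb next and Tfe3 overlapping ntc. Pld3 had 255, 234, 309 and 244 CPM with ntc and 409, 396, 452 and 411 with the Mitf ASO (0.68 ± 0.05, 1.04e-07). It had 333, 316, 344 and 327 with the Tfeb ASO (0.35 ± 0.05, 0.00143) and 290, 302, 326 and 295 with the Tfe3 ASO (0.22 ± 0.05, 0.0248, lost without any of 6 of the 8 libraries). Lamp1 had 1303, 1274, 1440 and 1262 CPM with ntc and 1955, 1819, 1883 and 1905 with the Mitf ASO (0.52 ± 0.04, 4.89e-07). It was not called with the Tfeb (0.15, 0.121) or Tfe3 ASO (-0.05). By class, the Mitf ASO raised 5 of 8 sphingolipid genes, 4 of 7 for glycoprotein sugars, 3 of 5 for proteins, 3 of 7 for cholesterol and phospholipids, 2 of 4 for nucleic acids, 2 of 4 membrane proteins and 0 of 4 for glycosaminoglycans.

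Gm2a, Man2b1 and Pld3 rose with all 3 ASOs. Gm2a had 337, 345, 376 and 353 CPM with ntc, 472, 449, 499 and 522 with Mitf (0.46 ± 0.04, 6.28e-07), 418, 415, 436 and 463 with Tfeb (0.30 ± 0.04, 0.000621) and 436, 437, 455 and 457 with Tfe3 (0.34 ± 0.04, 0.000108). Every ASO library was above every ntc library. Man2b1 changed by 0.43 ± 0.04, 0.28 ± 0.04 and 0.22 ± 0.04. Cd68 rose with the Mitf (0.33, 0.000361) and Tfe3 ASOs (0.22 ± 0.05, 0.0284), the latter lost without any of 7 of the 8 libraries. With the Tfeb ASO, Plbd2 (0.24, 0.0212) and Arsb (0.29 ± 0.07, 0.0474) were called and lost without any of 6 and 7 of the 8 libraries. Fitted without the group number as a block, the Tfeb and Tfe3 ASOs each had 1 call among the 39.

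The Tfe3 ASO lowered Dnase2a, Neu1 and Galc. Dnase2a had 179, 147, 167 and 134 CPM with ntc and 144, 118, 111 and 108 with the Tfe3 ASO, and was higher, at 232, 220, 225 and 188, with the Mitf ASO. The ntc and Tfe3 ranges overlapped, and within the group numbers the change was -0.38 ± 0.07 (0.00632). For the Mitf ASO it was 0.47 ± 0.07 (0.000216), and for the Tfeb ASO, at 192, 147, 148 and 150 CPM, 0.02. Galc had 80.0, 71.6, 78.8 and 75.3 CPM with ntc, 65.8, 62.4, 56.3 and 66.5 with the Tfe3 ASO (-0.29 ± 0.07, 0.0405) and 111, 96, 101 and 105 with the Mitf ASO (0.44 ± 0.07, 0.000559). Neu1 had 66.9, 62.7, 56.6 and 56.6 CPM with ntc and 51.0, 53.9, 46.9 and 44.7 with the Tfe3 ASO (-0.31 ± 0.07, 0.0195), against 0.27 ± 0.06 (0.0127) with the Mitf ASO. The Tfe3 ASO calls for Galc and Neu1 were lost without any of 8 and 6 of the 8 libraries.

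**Figure D4:**
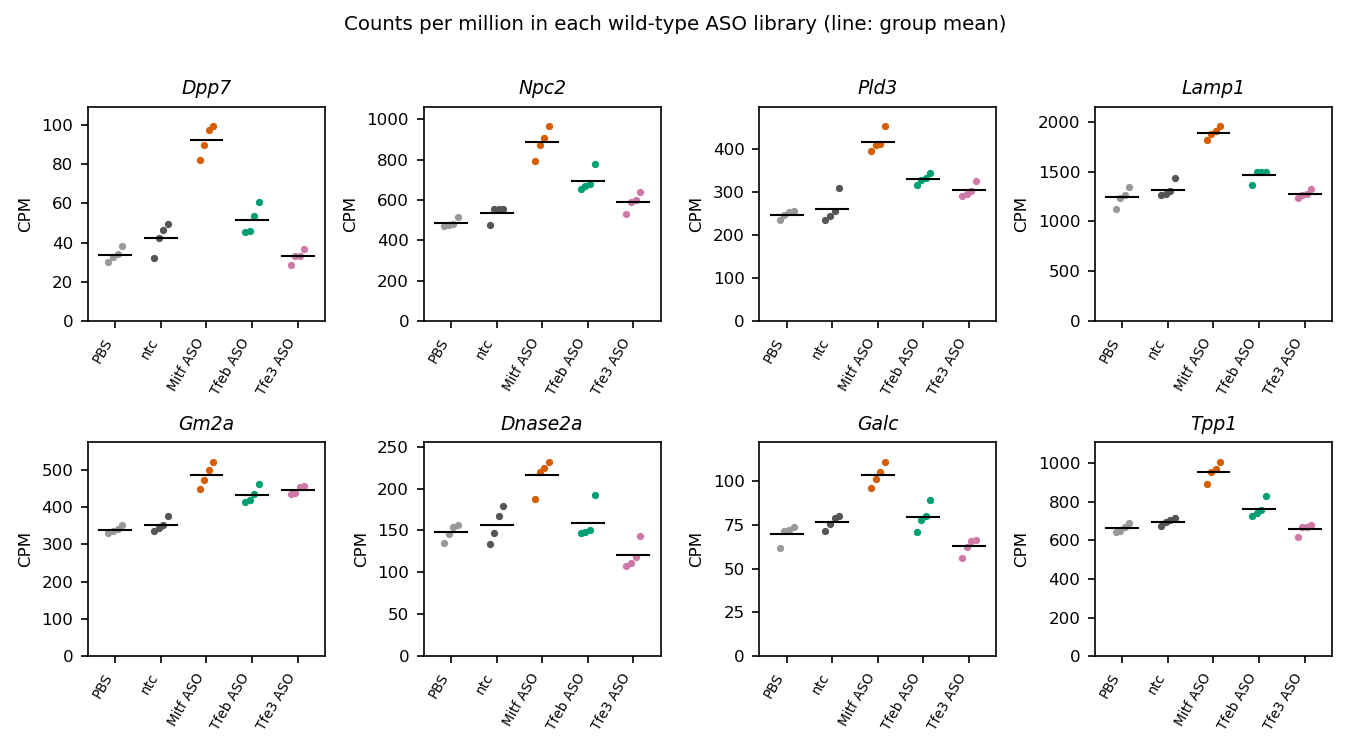
CPM (y axes) of Dpp7, Npc2, Pld3, Lamp1, Gm2a, Dnase2a, Galc and Tpp1 in each wild-type library by treatment (x axis: PBS, ntc, Mitf, Tfeb and Tfe3 ASO); points are libraries and bars the means. Mitf ASO libraries of Dpp7, Npc2, Pld3 and Lamp1 lie above all other libraries, and Tfe3 ASO libraries of Galc lie below those of ntc.

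Set directly against each other, the ASOs differed. The Mitf ASO gave higher levels than the Tfe3 ASO for 16 of 39 genes and lower for 0, against 2.63% and 1.13% of all genes. The largest of these differences were Dpp7 at 1.49 ± 0.11 (1.35e-07), Dnase2a at 0.85 ± 0.07 (4.54e-07), Galc at 0.72 ± 0.07 (3.85e-06) and Npc2 at 0.58 ± 0.05 (7.41e-07). Against the Tfeb ASO it gave 11 higher and 1 lower, where 1.67% and 1.86% of all genes were called, with Dpp7 (0.84 ± 0.10), Dnase2a (0.45 ± 0.07), Galc (0.38 ± 0.07) and Lamp1 (0.37 ± 0.04) leading and Pld4 lower (-0.23 ± 0.05, 0.00792). The Tfeb ASO stood above the Tfe3 ASO for 10 genes and below for 0, against 1.07% and 0.555%, led by Dpp7 (0.65 ± 0.11, 0.00442), Dnase2a (0.40 ± 0.07, 0.00558), Neu1 (0.38 ± 0.07, 0.00586) and Galc (0.34 ± 0.07, 0.0201). Without the group number as a block the last comparison called 0 of the 39 and the one before it 4.

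In SgshKO microglia, the joint Mitf and Tfe3 ASOs lowered 9 of 40 and raised 3, against 4.50% and 4.84% of the 10589 genes tested. The median log2 fold change was -0.04, and 0.00205 over all genes. No wild-type libraries are in this table, so whether the genes were raised in these mice was not measured. Lipa fell from 431, 443, 401 and 406 CPM in grp 1 and 396, 374, 357 and 371 in grp 2 with ntc to 316, 356, 303 and 271 in grp 1 and 323, 326, 294 and 323 in grp 2 (-0.34 ± 0.05, 0.000730). In both groups of mice every treated library was below every ntc library. Dpp7 had 133, 142, 124 and 137 CPM in grp 1 and 125, 136, 135 and 131 in grp 2 with ntc, and 123, 106, 115 and 105 and 114, 102, 104 and 103 with the ASOs (-0.29 ± 0.04, 0.000470). Its treated and ntc ranges did not overlap within either grp. Cd68 had 1004, 1174, 983 and 1067 CPM in grp 1 and 1246, 1225, 1086 and 1223 in grp 2 with ntc, against 978, 903, 816 and 803 and 920, 920, 898 and 1031 with the ASOs (-0.31 ± 0.05, 0.00127), with grp 1 libraries of the 2 treatments nearly touching at 978 and 983. Galc fell from 123, 119, 116 and 129 CPM and 122, 122, 120 and 125 to 109, 112, 96.3 and 104 and 106, 99.0, 95.6 and 102 (-0.25 ± 0.04, 0.000708), and again no ranges overlapped. Gla had 17.1, 13.4, 15.6 and 13.9 CPM in grp 1 and 14.1, 16, 16.3 and 14.2 in grp 2 with ntc, against 13.7, 12, 12.4 and 8.96 and 11.8, 10.3, 10.6 and 14.4 with the ASOs. The ranges overlapped in both, and its change (-0.36 ± 0.09, 0.0239) lost its call without grp 2 treated replicate 3 (0.052). Scpep1 fell by 0.18 on the log2 scale (0.0132). The calls for Pld3 (-0.20, 0.0431), Tpp1 (-0.13, 0.0371) and Npc1 (-0.16, 0.0487) were lost without any of 12, 10 and 14 of the 16 libraries.

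The 3 genes that rose were Gm2a, Npc2 and Fuca1. Gm2a had 373, 425, 471 and 446 CPM in grp 1 and 573, 518, 517 and 599 in grp 2 with ntc, and 589, 606, 634 and 720 and 635, 664, 689 and 743 with the ASOs (0.44 ± 0.06, 0.000442). Treated libraries were above ntc libraries in each grp, and the ntc ranges of grp 1 and grp 2 did not overlap. Npc2 went from 804, 854, 871 and 821 CPM and 880, 876, 878 and 853 to 1025, 1029, 939 and 967 and 888, 973, 996 and 981 (0.19 ± 0.04, 0.00395). Fuca1 went from 81.5, 94.8, 91.4 and 99.3 and 96.1, 95.7, 99.9 and 104 CPM to 116, 114, 110 and 115 and 100, 110, 110 and 109 (0.21 ± 0.05, 0.00875). By class, 3 of 5 protein genes fell, as did 2 of 7 for cholesterol and phospholipids, 2 of 8 for sphingolipids, 1 of 4 membrane proteins and 1 of 5 for nucleic acids, and none of 7 for glycoprotein sugars or of 4 for glycosaminoglycans. A difference of the effect between grp 2 and grp 1 was called for 0 of the 40 genes in edgeR's test, and for 0% of all genes, with 11 of the 40 and 1768 of all genes at an unadjusted p under 0.05. In grp 1 alone 1 gene fell and 1 rose, and there Dpp7 (0.0933), Cd68 (0.121) and Galc (0.126) missed the threshold. Neutrophil markers (5 genes in this table) summed to 0.996 to 38.5 CPM in grp 1 and 65.4 to 516 in grp 2. Without the 4 libraries over 200 CPM, 5 fell and 3 rose. The grp 2 libraries that were kept still held 65.4 to 107 CPM of these markers. Mrc1 was at 155 to 195 CPM with the ASOs and 116 to 183 with ntc. Ccr2, the monocyte marker in this table, was at 2.22 to 3.14 CPM with the ASOs and 2.88 to 5.54 with ntc in grp 1. In grp 2 it was at 2.01 to 3.58 and 4.24 to 5.77. Microglia markers summed to 43427 to 50028 CPM with the ASOs and 43528 to 46658 with ntc in grp 1. In grp 2 they summed to 45806 to 48531 and 43905 to 45295, without overlap. The part of neutrophil, border macrophage and monocyte RNA, and of the microglia markers, in the changes was not tested.

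**Figure D5:**
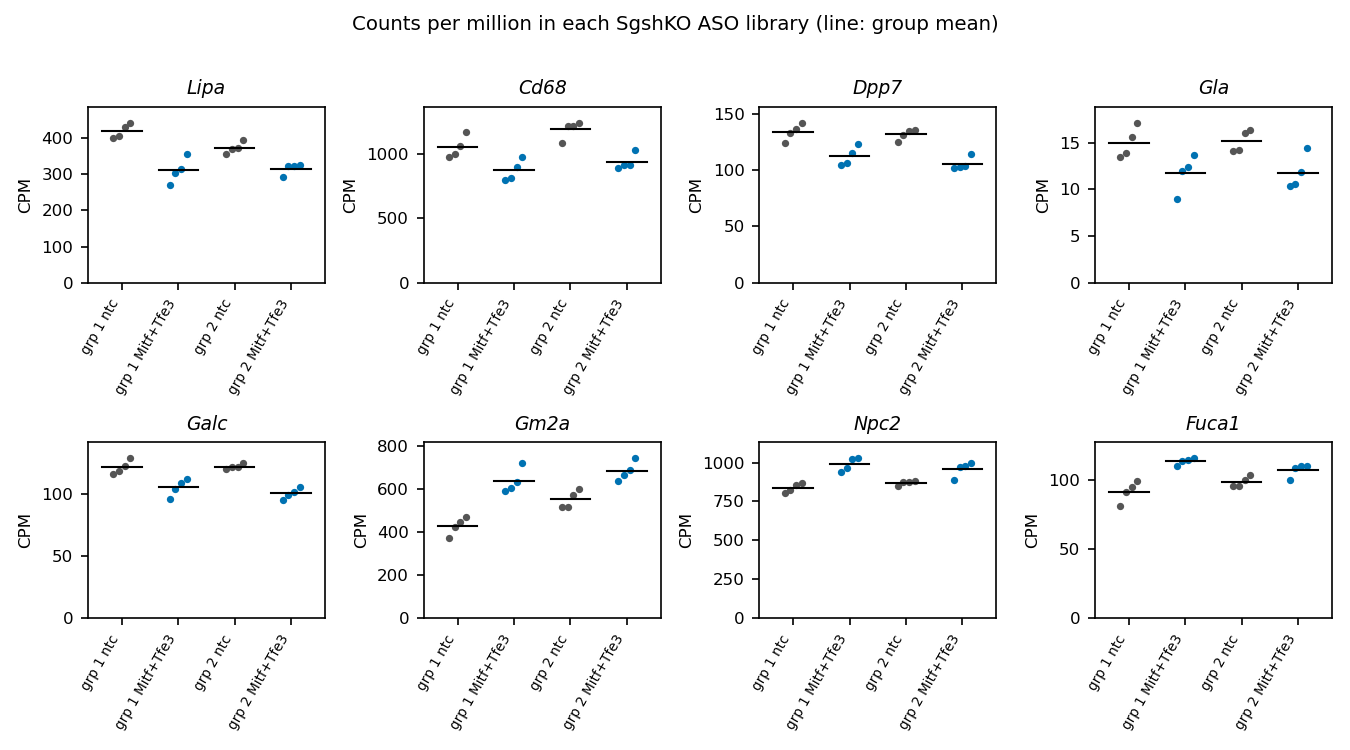
CPM (y axes) of Lipa, Cd68, Dpp7, Gla, Galc, Gm2a, Npc2 and Fuca1 in each SgshKO ASO library, by grp and treatment (x axis); points are libraries and bars the means. Lipa, Dpp7 and Galc are lower in every treated library of a grp than in its ntc libraries, and Gm2a is higher.

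The age series and the 2 ASO tables share no libraries. All 19 genes raised by the Mitf ASO in wild type were among the 27 of 41 raised in SgshKO at 8 months, and made up 70.4% of those 27. Over all genes tested in both tables, 84.9% of the 577 raised by the Mitf ASO also rose in SgshKO at 8 months. They made up 22.9% of the 2141 that rose there, which were 21.7% of the 9865 genes tested in both. All 9 genes lowered by the joint ASOs in SgshKO were also among the 27 (33.3% of them), as were the 3 that rose (11.1%). Over all genes tested in both tables, 248 of the 468 lowered by the joint ASOs (53.0%) rose in SgshKO at 8 months. Of the 503 raised by them, 155 did (30.8%). They made up 10.6% and 6.62% of the 2341 that rose there, which were 23.1% of the 10146 genes tested in both. Of the 9, 7 were genes that the Mitf ASO raised in wild type (77.8% of the 9 and 36.8% of the 19): Cd68, Dpp7, Galc, Gla, Pld3, Scpep1 and Tpp1. Over all genes it was 82 of 449, or 18.3%, which made up 13.9% of the 590 that the Mitf ASO raised. The 3 genes that the joint ASOs raised, Fuca1, Gm2a and Npc2, were all raised by the Mitf ASO in wild type too. Over all genes it was 71 of 500, or 14.2%. The 590 were 5.99% of the 9842 genes tested in both tables. Dpp7 stood at 1.12 with the Mitf ASO in wild type and -0.29 with the joint ASOs in SgshKO. Npc2 stood at 0.72 and 0.19. Agents, genotype and table all differ between the 2 values of each gene, so their difference was not tested. Of the 12 genes with a motif in the promoter window, 9 rose in SgshKO at 8 months, and of the 23 without, 14 did. With the Mitf ASO, 7 of 11 with a motif rose and 11 of 22 without.

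Other genes of the lysosome, from lists of the same pathway, gave the setting, and their counts stand against the 5.31%, 10.3% and 21.6% of all genes that rose in SgshKO at the 3 ages and the 3.72%, 9.26% and 18.9% that fell. Of 16 V-ATPase subunits, which acidify the lysosome, 13, 11 and 12 rose in SgshKO at the 3 ages and 0 fell, with medians of 0.53, 0.69 and 0.81 (log2). Atp6v1a, a catalytic subunit, changed by 1.42 at 8 months. Of 10 cathepsins 5, 5 and 7 rose and 0 fell, with Ctsb, a cysteine cathepsin, at 1.45 at 3 weeks and 1.91 (9.76e-17) at 8 months. Of 9 genes of heparan sulfate breakdown, Sgsh included, 6, 5 and 6 rose and 0, 0 and 2 fell. Of 14 further hydrolases and activators 8, 7 and 8 rose and 1, 0 and 0 fell. Of 13 further membrane proteins 7, 3 and 7 rose and 0 fell, with Cd63 at 2.65 at 8 months, and of 6 enzyme-sorting genes 1, 3 and 5 rose and 0, 0 and 1 fell. Of the 5 MiT/TFE regulators 2, 2 and 1 rose and 0 fell, and the transcript of Mitf itself was higher by 0.47, 0.61 and 0.84. The Mitf ASO in wild type raised 8 of 15 V-ATPase subunits, 6 of 9 cathepsins (Ctsb at 0.82), 7 of 13 hydrolases and activators, 3 of 13 membrane proteins (Cd63 at 0.98), 2 of 8 heparan sulfate genes and 1 of 5 sorting genes, and lowered none of them, where 5.77% of all genes rose and 5.21% fell. The joint ASOs in SgshKO lowered 6 of 15 V-ATPase subunits (Atp6v1a at -0.28) and 7 of 13 membrane proteins (Cd63 at -0.27, Ctns at -0.34) and raised 0 of either list, where 4.50% of all genes fell and 4.84% rose. They lowered 3 of 9 heparan sulfate genes, Naglu (-0.42) among them, and raised 1, and raised 1 of 6 sorting genes. Of 9 cathepsins 2 rose, Ctss at 0.47 among them, and 0 fell, and of the 14 further hydrolases 3 rose and 2 fell.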

How the data were processed

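Polyadenylated RNA of sorted microglia was measured in 58 libraries. The raw counts per gene are as the authors deposited them in 3 tables (22, 20 and 16 libraries), and the deposited ASO tables list only genes above a low level (10277 and 10589). Per the submitters' processing notes, STAR 2.5.3a, kallisto 0.44.0, HOMER 4.11, DESeq2 1.36.0 and R 4.2.3 were used with mm10. Which tool counted which table is not given in the sources used here. The deposited TPM values of the age series served for levels per length and an alternative, and the deposited normalised ASO signal, whose method is not given in the sources used here, as an alternative. The 2 RNA kits and 2 sequencers named in the protocols are not assigned to libraries, so their part in the differences was not tested.

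In R 4.3.3, raw counts with TMM factors went through the quasi-likelihood F test of edgeR 4.0.16. In the age series genes first had to pass filterByExpr (minimum count 10), and in the ASO tables every listed gene was tested. P-values were adjusted by Benjamini-Hochberg over all genes tested, with a threshold of 0.05. The age model held 6 groups, and the ASO models treatment and the grp number. CPM use TMM-scaled library sizes, SE is derived from the F statistic, and SD is over libraries. The labels give wild-type PBS replicate 4 grp 4 and the table's column grp 3, and grp 4 was used. Wild-type ASO libraries of the same grp number, which is also their replicate number, had deviations correlated at -0.0333 to 0.640 (40 pairs). In SgshKO, ntc and treated libraries of the same replicate number within a grp correlated at 0.0839 to 0.612 (8 pairs), and the replicate numbers were left out of the SgshKO model. No source says that a number marks a shared litter or day. No library pair held identical values. Up to 4 genes per direction and comparison were named by size of change, with all values of the 41 followed. The gene set, classes and lists were chosen with earlier results of these data known. The script was tested on simulated counts. Alternatives were DESeq2 1.42.0, limma 3.58.1 on log2(TPM + 1), no filter on low counts, other blocks and leaving out each library. Depth limits low genes such as Acp5, and counting error alone does not cover differences between animals.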

Additional observations from a re-analysis of the deposited data

Results flagged for a closer look

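In groups of 4 to 10 libraries, 141 gene and group combinations were examined for a library far from the others, and 11 had such a library, where chance alone gives about 1 in 20. Npc2 was at 477 CPM in wild-type ntc replicate 4, the others at 557 to 558, and at 853 in SgshKO grp 2 ntc replicate 4, the others at 876 to 880. With the Tfeb ASO, Dnase2a was at 192 CPM in replicate 1 against 147 to 150, and Lamp1 at 1362 in replicate 2 against 1497 to 1499. In SgshKO grp 2 with the joint ASOs, Fuca1 was at 100 CPM (the others 109 to 110) and Dpp7 at 114 (102 to 104) in replicate 1, Lipa at 294 (323 to 326) in replicate 3, and Cd68 at 1031 (898 to 920) in replicate 4. Cd68 was at 1086 CPM in grp 2 ntc replicate 3 against 1223 to 1246. In wild type at 8 months, Galns was at 30.7 CPM in replicate 4 against 24.9 to 25.5, and Asah1 at 484 in replicate 1 against 400 to 410.

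The genotype difference changed between ages by the test of the change itself for 17 results. From 3 weeks to 8 months these were Acp5 (4.74), Pld3 (1.04), Glb1 (0.97), Gm2a (0.87), Ggh (0.74), Cd68 (0.60), Hexa (0.50), Lipa (0.50), Npc2 (0.50), Man2b1 (0.39), Lamp1 (0.35), Ppt1 (0.32) and Aga (-0.51), as differences of log2 fold changes. From 3 weeks to 4 months they were Gla (1.05), Glb1 (0.71), Pld3 (0.65) and Gm2a (0.54).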

How the results depend on the processing

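The 76 results for named genes gave 1281 values under the alternatives, of which 1148 stayed on their side of the threshold, 133 lost the call and 0 reversed. Counts of genes called moved by over 1.5 times as follows, and the cause was not tested. For the change from 3 weeks to 4 months (4 called), DESeq2 gave 7, limma on TPM 7 and the replicate block 0. From 4 to 8 months (0), DESeq2 and no filter on low counts each gave 1. From 3 weeks to 8 months (13), the replicate block gave 6. For age in wild type (8), the covariate for Ddx3y and Xist gave 2. With no replicate block, the Tfeb ASO (6) gave 1, the Tfe3 ASO (7) 1, Mitf against Tfeb (12) 4 and Tfeb against Tfe3 (10) 0. The joint ASOs (12) gave 2 in grp 1 alone. Leaving out each library gave 0 to 5 for 3 weeks to 4 months, 0 to 1 for 4 to 8 months, 5 to 9 for age in wild type, 3 to 6 for the Tfe3 ASO and 4 to 8 for Tfeb against Tfe3. It gave 21 to 23, 26 to 27 and 30 to 33 for SgshKO against wild type at the 3 ages, 16 to 18 for the Mitf ASO and 8 to 13 for the joint ASOs. In the age series same-numbered libraries had deviations correlated at -0.171 to 0.115 over 9 pairs, so the numbers were not taken as pairing. In SgshKO ASO libraries, where 3 of the 8 pairs were below 0.1, the replicate block gave 12 genes called, as without it. With PBS replicate 4 in grp 3, the Mitf, Tfeb and Tfe3 ASOs gave 19, 6 and 7. The alternatives without libraries rich in neutrophil markers were chosen after seeing the data. Groups of 2 libraries at 4 months limit every value of that age.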
